A study of Marchantia polymorpha and Arabidopsis thaliana and Oryza sativa Japonica Group with 80 samples.

Results

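Arabidopsis seedlings that had spent 48 or 72 h in 100 mM NaCl were compared with seedlings that had spent 1 or 3 h in it. The 8 RNA libraries were chosen by their labelled time, 4 late and 4 early, from the 16 libraries of a time course and the 80 samples of the series. All were made from whole seedlings of Col-0, the common laboratory wild type, which were 7 days old by the labels, grown in liquid medium under continuous light and moved to the same medium with salt. The course also holds libraries from 0, 6, 12 and 24 h, and each of its 8 times has 2. The series calls them biological replicates and does not say whether they came from separate cultures, so p-values measure the spread between these libraries. The test takes libraries as independent. Same-numbered libraries deviated together within the early and within the late times, so standard errors and p-values may be too small. Late and early seedlings therefore share the strain, the salt and the starting age, and differ in hours since transfer. No library was left without salt after 0 h. Time in salt therefore cannot be told apart from handling, growth or the greater age of the late seedlings. The hour of day at sampling may also differ between early and late libraries and cannot be told apart either. Acclimation itself was not measured.

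When roots meet salt, the outside solution first draws water from the cells and sodium then accumulates in them. Water loss raises the hormone abscisic acid (ABA), which binds receptors of the PYL family. The bound receptors inhibit type 2C protein phosphatases, which frees SnRK2 kinases to activate transcription factors. Their targets include the late embryogenesis abundant (LEA) proteins and dehydrins, small hydrophilic proteins that shield membranes and enzymes during drying. Over a longer time plants are known to adjust water channels, compatible solutes such as proline, ion transport, the suberin and Casparian barriers of the root, photosynthesis and growth.

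The 8 libraries held 18466271 to 24148375 counted reads. Levels are given as CPM, read counts scaled for sequencing depth and library composition, and changes as log2 fold changes (late minus early) with their standard error. Over the 15407 genes tested, 3526 (22.9%) were higher late and 3583 (23.3%) were lower at an adjusted p below 0.05, and the median change was 0.01 (edgeR quasi-likelihood test, Benjamini-Hochberg over all genes). Of these, 913 rose and 1430 fell at least 2-fold, and 225 rose and 422 fell at least 4-fold. The 4 late libraries lay wholly above the 4 early ones in 2683 genes (17.4%) and wholly below in 2660 (17.3%). A list of genes below is set beside these shares. In total 36 lists with 599 genes were described, of which 430 had a row in the table and 398 were tested. A gene with no row was not analysed here. Rows were uneven over the genome, with 6851, 5413, 2885, 2220 and 6481 genes of chromosomes 1 to 5. Counts over all genes cover only genes with a row, and why others have none was not stated. Since whole seedlings were sampled, fewer cells of a type and less RNA per cell cannot be told apart in any result.

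On the first principal component of all genes, which held 37.2% of the variance, the early libraries scored from -59.3 to -27.9 and the late ones from 43.4 to 64.6. The 0 h libraries scored -9.51 and -21.2, nearer to the early end. Replicate 2 of the late times stood apart from replicate 1 in some gene groups. The library at 72 h replicate 2 had the lowest score of the late libraries on the second component (-42.6). Some calls of genes named below were lost without both late libraries of replicate 1. These genes were CASP1, CKX5, CYP79B3, ESB1, FER3, KRP4, MYB36, NHX2, OMT1, PER64 and RBCS3B. Where a call of a named gene was lost without both late libraries of replicate 2, this is said beside the gene. Without them 2693 genes were called higher and 2903 lower, and without both of replicate 1 the counts were 2834 and 3213.

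**Figure D1:**
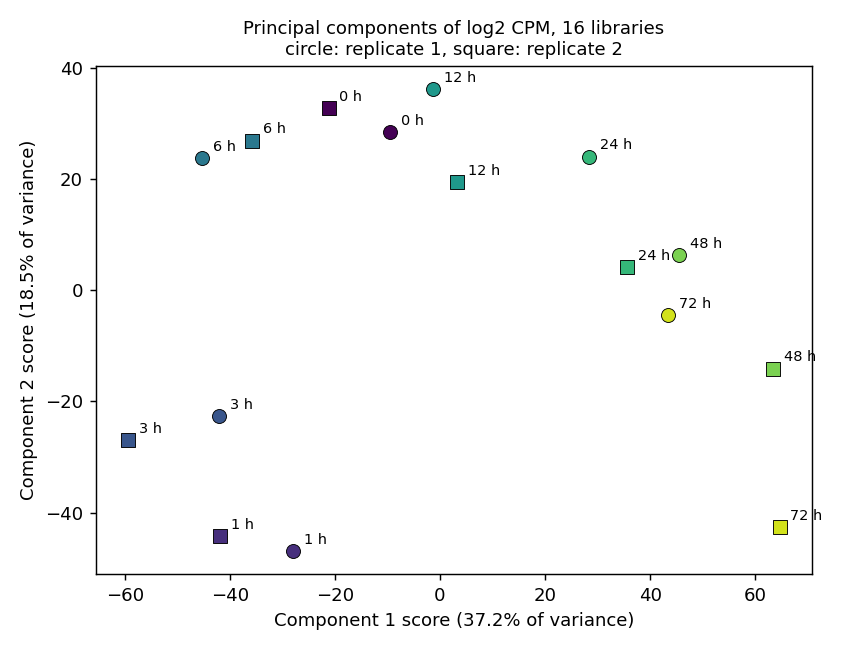
Scores of the 16 libraries of the course on the first component (x axis, 37.2% of the variance) and the second (y axis, 18.5%), from log2 CPM of all genes tested; each point is a library, labelled with its hours in NaCl, circles for replicate 1 and squares for replicate 2. The 1 and 3 h libraries lie at the left with negative scores on both components, and the 48 and 72 h libraries lie at the right between 43.4 and 64.6.

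The ABA response and LEA genes had the largest median change of the 36 lists. Of 19 members tested, 18 fell and edgeR called none higher, with a median of -3.22. RD29A (AT5G52310), a standard reporter of dehydration and ABA, reached 1830 and 1930 CPM after 1 h and 1920 and 2830 after 3 h. The 48 h libraries held 47.9 and 26.8 CPM, and those of 72 h held 65.3 and 56.8. Every late library was far below every early one, and the fall of -5.47 ± 0.32 (adjusted p = 2.97e-07) is 44.3-fold. COR15A (AT2G42540), a chloroplast protein that protects membranes in cold and drought, had 34.6, 19.6, 289 and 387 CPM in the early libraries and 0.427, 0.3, 0.46 and 0.795 in the late ones. It fell by 7.64 on the log2 scale (SE 0.82, adjusted p = 1.86e-05). KIN1 (AT5G15960), another cold and ABA induced gene, had 30.9, 33, 158 and 256 CPM early and 2.09, 1.67, 3.43 and 2.04 late (-5.15 ± 0.37, adjusted p = 1.13e-06). RD20 (AT2G33380), a calcium-binding caleosin, had 95.5, 42.7, 176 and 168 CPM early against 3.84, 4.85, 3.47 and 6.26 late (-4.57 ± 0.38, adjusted p = 2.94e-06). COR15A and COR15B, and KIN1 and COR6.6, are near-identical neighbours whose reads may have been shared between copies, so the split within each pair is uncertain.

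The single member that was not called was RAB18 (AT5G66400), a dehydrin. It had 46.5, 44.3, 51.2 and 123 CPM early and 62.1, 19.7, 59.8 and 21.5 late, and the groups overlap (-0.62 ± 0.56, adjusted p = 0.386). The other 14 called members changed by -6.48 to -1.06. Among them LTP4 (AT5G59310; -6.48 ± 1.43), LTP3 (AT5G59320) and RD29B (AT5G52300), named after their values were seen, had overlapping groups. LTP4 and LTP3 had at most 0.887 CPM at 1 h and at least 14.5 at 3 h. RD29B had 61 to 364 CPM early and 7.9 to 83.7 late (adjusted p = 0.0424). Set beside 0 h, with libraries shared between the comparisons, 17 of the 19 were higher early (9.04% of all genes were) and 3 were higher late (14.6%). Their median was 4.37 above 0 h early and 0.695 above it late. The late level of RD29A was 0.61 ± 0.34 from that at 0 h (adjusted p = 0.186).

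The core of the ABA signalling chain moved the same way. All 13 signalling genes tested fell, with a median of -1.48. HAI1 (AT5G59220), a phosphatase that restrains ABA signalling and is itself induced by ABA, had 78.6, 58.5, 32.2 and 45.9 CPM early and 2.05, 2.1, 2.05 and 5.71 late (-4.19 ± 0.43, adjusted p = 1.19e-05). The late libraries were all far lower, with 72 h replicate 2 above the others. AFP1 (AT1G69260), which promotes the breakdown of the transcription factor ABI5, fell by 2.71 ± 0.15 and the phosphatase gene ABI2 (AT5G57050) by 2.42 ± 0.12 on the log2 scale. ABF2 (AT1G45249), a transcription factor that binds ABA-responsive promoters, had 89.5, 69.2, 73.4 and 71.1 CPM early and between 26.6 and 27.9 in the 4 late libraries (-1.48 ± 0.13, adjusted p = 3.42e-06). The late libraries of ABF2 lie within a far narrower band than the gap to the early ones.

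Receptor genes went in both directions. Of 8 tested, 4 rose and 2 fell, with a median of 0.22. PYL6 (AT2G40330) had 1.27, 2.92, 4.58 and 6.5 CPM early and 31.5, 35.9, 25.9 and 20.5 late, and rose by 3.07 ± 0.20 (adjusted p = 5.67e-07). PYL5 (AT5G05440) rose by 1.67 ± 0.14 and PYL4 (AT2G38310) by 1.64 ± 0.19. PYL9 (AT1G01360) instead fell, from 56, 48.9, 21.6 and 16.8 CPM to 12.9, 12.1, 10.3 and 11.4 (-1.45 ± 0.11, adjusted p = 1.48e-06). The late levels of PYL4, PYL5 and PYL6 differed from those at 0 h by -0.45, -0.05 and 0.01, none of which was called.

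Genes of ABA synthesis and breakdown were mixed, 1 of 8 rising (3 without 1 h replicate 1) and 4 falling. NCED3 (AT3G14440), which cleaves the carotenoid precursor in the limiting step of stress-induced ABA synthesis, had 65.5 and 78 CPM after 1 h and 13.7 and 19.3 after 3 h. In the late libraries it had 0.725, 0.729, 0.753 and 1.89 CPM. Its fall was 5.14 ± 0.56 on the log2 scale (adjusted p = 1.93e-05). The 3 h libraries were both below the 1 h ones, a difference that did not pass the test (-2.12 ± 0.63, adjusted p = 0.0517). Of the ABA 8'-hydroxylases, which degrade the hormone, CYP707A3 (AT5G45340) fell by 2.23 ± 0.32 and CYP707A4 (AT3G19270) rose by 1.66 ± 0.19. CYP707A4 had between 2.43 and 4.58 CPM in the early libraries and between 9.77 and 14 in the late ones. ABA1 (AT5G67030), which makes the carotenoid violaxanthin, fell by 0.68 ± 0.17 on the log2 scale (adjusted p = 0.00512), though the early libraries (837, 458, 1070 and 858 CPM) overlap the late ones (524, 476, 455 and 513).

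**Figure D2:**
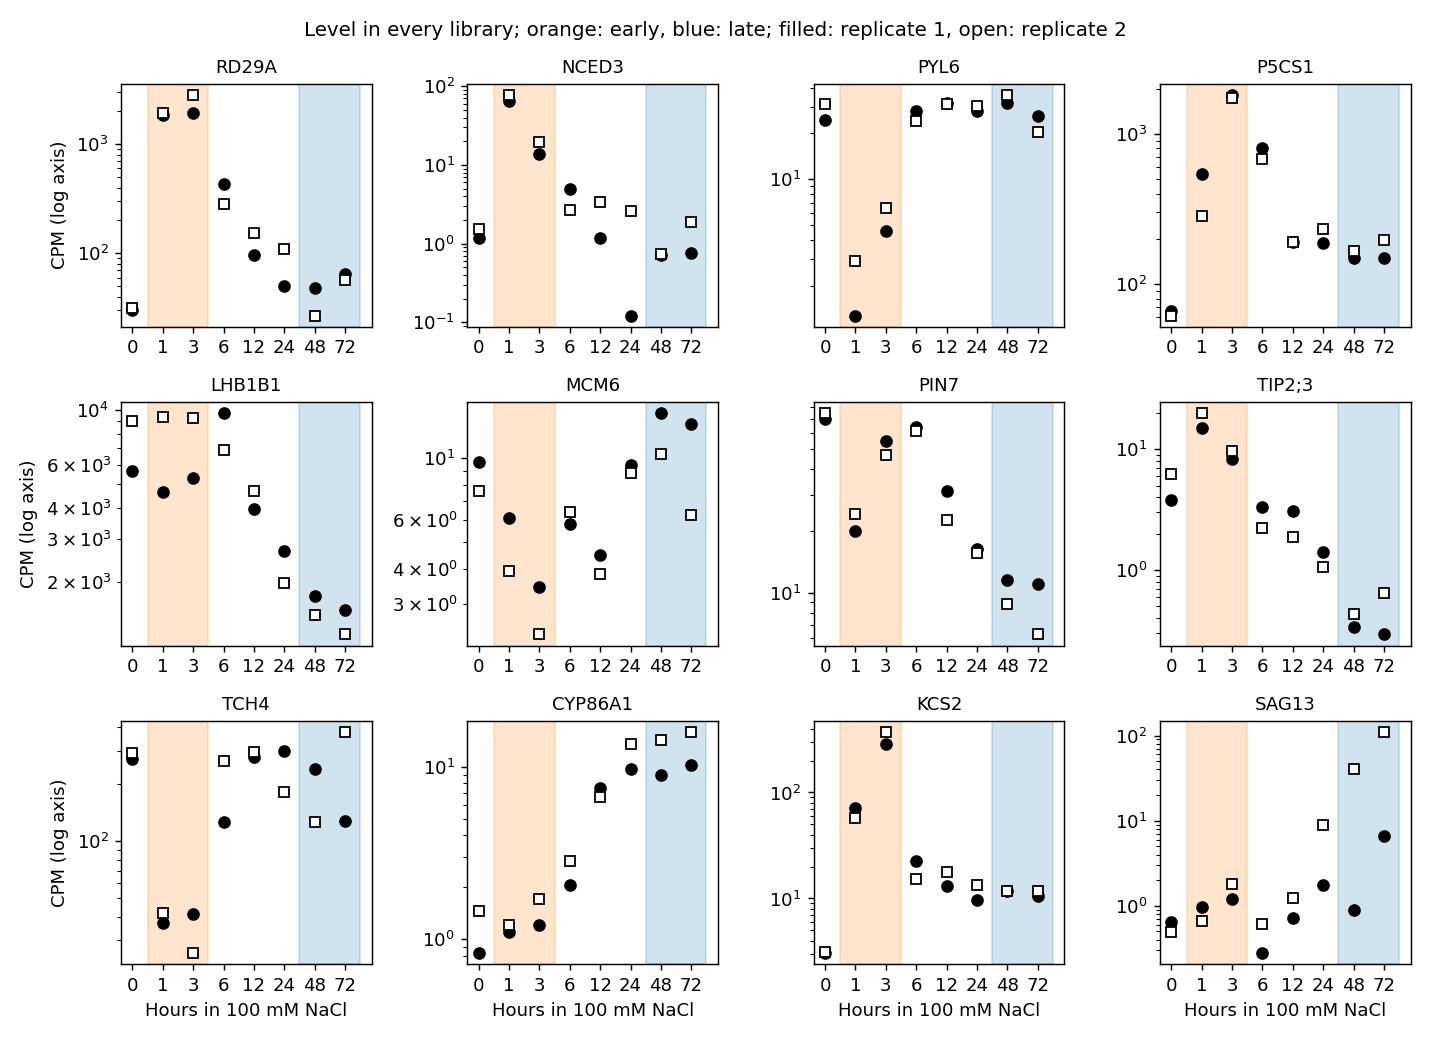
Level in CPM (y axes, log scale) of 12 genes in each of the 16 libraries of the course against hours in 100 mM NaCl (x axes), filled for replicate 1 and open for replicate 2; orange bands mark the early times and blue bands the late ones. RD29A and NCED3 are high in the orange band, PYL6 is low there, LHB1B1 and PIN7 are lowest in the blue band, and SAG13 differs more between the late replicates than any other gene shown.

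Transcription factors downstream of ABA and osmotic stress mostly fell, 10 of 16 against 1 that rose (median -0.71), or 2 that rose without 3 h or 72 h replicate 1. HB7 (AT2G46680) and HB12 (AT3G61890), paired homeodomain proteins induced by ABA, fell by 3.13 ± 0.24 and 2.90 ± 0.24 on the log2 scale. HB7 had 141, 100, 168 and 162 CPM early and between 13.5 and 21.7 late. MYB96 (AT5G62470), which activates wax and lipid transfer genes, fell by 1.60 ± 0.11, and HB6 (AT2G22430), a target of the ABA phosphatases, by 1.55 ± 0.16. The 1 member that rose, MYB44 (AT5G67300), named after its values were seen, had 212 and 268 CPM at 1 h, 61.6 and 81.6 at 3 h and between 177 and 248 late (0.65 ± 0.13), so the late libraries overlap those at 1 h. In the late group 72 h replicate 2 was the highest library for this list, 0.98 above the 0 h mean against -0.09 to 0.09 in the others.

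Kinase and calcium genes split. Of 12 tested, 2 rose and 4 fell, and the median of 0.0003 changed sign under another scaling. MAPKKK18 (AT1G05100), a kinase induced by ABA, had 12.4, 12.8, 6.72 and 7.73 CPM early and 0.341, 0.343, 0.0418 and 0.447 late (-5.05 ± 0.51, adjusted p = 1.12e-05). CIPK5 (AT5G10930), a calcium sensor kinase, fell by 2.06 ± 0.15, and its late libraries lay between 5.63 and 7.47 CPM against 19.8 to 32.1 early. The zinc finger gene SZF1 (AT3G55980) rose by 0.72 ± 0.20 (adjusted p = 0.011) but stood lower at 48 h than at 1 h (-0.54), and only the library of 72 h replicate 2, with 203 CPM, lay above all early ones. MKK9 (AT1G73500), a MAP kinase kinase, rose by 0.56 ± 0.15, from 9.59 to 13.1 CPM across the early libraries to 12.9 to 20.8 late. Its call was lost with only the 4 times fitted (adjusted p = 0.0562) and in each of the 4 single pairs of times. Without 72 h replicate 1 the number of members that rose was 5 in place of 2.

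Proline and raffinose sugars are protective solutes of stressed plants. Of 15 genes of their synthesis, breakdown and transport, 3 rose and 9 fell, with a median of -0.75. P5CS1 (AT2G39800), the controlling enzyme of proline synthesis, had 542 and 285 CPM after 1 h, 1820 and 1730 after 3 h, and 148, 167, 150 and 197 in the late libraries. It fell by 2.37 ± 0.18 on the log2 scale (adjusted p = 1.58e-06), and the late level was still 1.38 above that at 0 h (adjusted p = 0.00104). GOLS2 (AT1G56600), a galactinol synthase that starts the raffinose pathway, had 19.9, 15.5, 9.33 and 13 CPM early and 0.64, 0.172, 0.711 and 1.09 late (-4.53 ± 0.41, adjusted p = 5.5e-06). MIPS2 (AT2G22240), which makes the inositol that the pathway uses, fell by 2.35 ± 0.13 and the raffinose synthase gene RS5 (AT5G40390) by 2.08 ± 0.15. The 3 members that rose, named after their values were seen, were SIP2 (AT3G57520), an alkaline galactosidase that breaks raffinose down (0.97 ± 0.16), and the proline genes P5CR (AT5G14800; 0.71 ± 0.08) and P5CDH (AT5G62530; 0.59 ± 0.14). P5CR makes proline in the step after P5CS1 and P5CDH takes part in its breakdown.

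Sodium and potassium transport genes changed less. Of 11 tested, 2 rose and 6 fell, with a median of -0.55. SOS1 (AT2G01980), which exports sodium from the cell, had 35.8, 18.8, 39.3 and 19.9 CPM early and 38, 43.6, 38.7 and 40.1 late, a change of 0.49 ± 0.23 that was not called (adjusted p = 0.106). Replicate 1 was above replicate 2 at both early times, and the late libraries overlap early replicate 1. NHX2 (AT3G05030), which loads ions into the vacuole, had 9.5, 6.74, 21.2 and 14.2 CPM early and between 7.72 and 8.74 late (-0.57 ± 0.17, adjusted p = 0.0153). This call ended without 1 h replicate 1 or 3 h replicate 1, and without both late libraries of replicate 2 (adjusted p = 0.0612) or of replicate 1 (adjusted p = 0.0739), and against 1 h alone NHX2 was not lower (0.04 at 72 h). HKT1 (AT4G10310), which retrieves sodium from the xylem and was named after its values were seen, had 2.58, 2.55, 3.18 and 2.46 CPM early and 0.213, 0.987, 0.335 and 0.993 late (-2.10 ± 0.41, adjusted p = 0.00141). NRT1.5 (AT1G32450), which loads nitrate and potassium into the xylem, fell by 2.47 ± 0.34. Its late libraries went from 17.2 and 7.47 CPM at 48 h to 8.03 and 2.68 at 72 h. VHP1 (AT1G15690), the vacuolar proton pump that powers sodium storage, rose by 0.69 ± 0.12, from 640 to 776 CPM across the early libraries to 1080 to 1240 late, and its late level differed from 0 h by 0.03. The channel gene KT1 (AT2G26650) fell by 0.55 ± 0.10 on the log2 scale.

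Aquaporins, the channels that carry water across the plasma membrane (PIP) and the vacuole membrane (TIP), fell in 11 of 13 genes tested, and edgeR called none higher (median -1.17). TIP2;3 (AT5G47450) had 15.1, 19.8, 8.32 and 9.61 CPM early and 0.341, 0.429, 0.293 and 0.646 late (-4.87 ± 0.30, adjusted p = 3.56e-07). PIP2B (AT2G37170) had 661, 690, 337 and 498 CPM early and 121, 97.8, 114 and 137 late (-2.18 ± 0.18, adjusted p = 2.64e-06). TIP1;1 (AT2G36830) fell by 2.05 ± 0.23 and RD28 (AT2G37180), a plasma membrane aquaporin first found as a drought gene, by 2.01 ± 0.16. Late libraries lay wholly below early ones for each of these. The uncalled members were TIP2;1 (AT3G16240; -0.07 ± 0.20) and PIP2;4 (AT5G60660; -0.41 ± 0.30). Beside 0 h, 8 members were higher and 3 lower early (7.39% of all genes were lower early), and 8 were lower late with none called higher (16.7% of all genes were lower late).

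Nuclear genes of the photosynthetic apparatus were lower late almost throughout. Of 30 genes for light-harvesting proteins and photosystem subunits 29 fell, and edgeR called none higher, with a median of -0.93. LHB1B1 (AT2G34430), a light-harvesting protein of photosystem II, had 4660, 9360, 5300 and 9310 CPM early and 1760, 1480, 1540 and 1230 late (-2.26 ± 0.26, adjusted p = 3.44e-05). LHCB4.2 (AT3G08940), a minor antenna protein, had 1430, 2090, 1880 and 2910 CPM early and 650, 563, 557 and 561 late (-1.82 ± 0.18, adjusted p = 9.49e-06). The antenna genes LHB1B2 (AT2G34420) and CAB3 (AT1G29910) fell by 1.77 ± 0.25 and 1.56 ± 0.21 on the log2 scale. The uncalled member was CAB2 (AT1G29920; -0.37 ± 0.20), whose sequence is near-identical to that of CAB1 and CAB3, so that the split of reads among these 3 is uncertain. Relative to 0 h, replicate 2 was higher than replicate 1 early (list medians of 0.333 and 0.523 against -0.281 and -0.103), while the late medians lay between -0.859 and -0.681. Every late median thus lay below every early one.

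The early libraries had no member called in either direction against 0 h, whereas 28 were lower late than at 0 h. The Rubisco and Calvin cycle genes, which fix carbon, fell in 10 of 11 (median -0.57). Among them RBCS2B (AT5G38420), a Rubisco small subunit, fell by 0.88 ± 0.16, RBCS3B (AT5G38410), another, by 0.69 ± 0.20, the Rubisco activase gene RCA (AT2G39730) by 0.69 ± 0.12 and the aldolase gene FBA1 (AT2G21330) by 0.69 ± 0.14 on the log2 scale. The call of RBCS3B was lost without both late libraries of replicate 2 (-0.65, adjusted p = 0.082) or of replicate 1 (-0.74, adjusted p = 0.053), with only the 4 times fitted (adjusted p = 0.0563) and in each of the 4 single pairs of times. Reads of the Rubisco small subunit genes may be shared between copies. Of 8 genes of chlorophyll synthesis 5 fell, among them PORC (AT1G03630), a light-dependent reductase, by 0.98 ± 0.09 and GUN4 (AT3G59400), a regulator of the magnesium chelatase, by 0.78 ± 0.11. CRD1 (AT3G56940), a cyclase subunit, fell by 0.64 ± 0.12 and CAO (AT1G44446), which makes chlorophyll b, by 0.51 ± 0.10. HEMA1 (AT1G58290), at the entry of the pathway, did not pass the test (-0.02 ± 0.09).

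**Figure D3:**
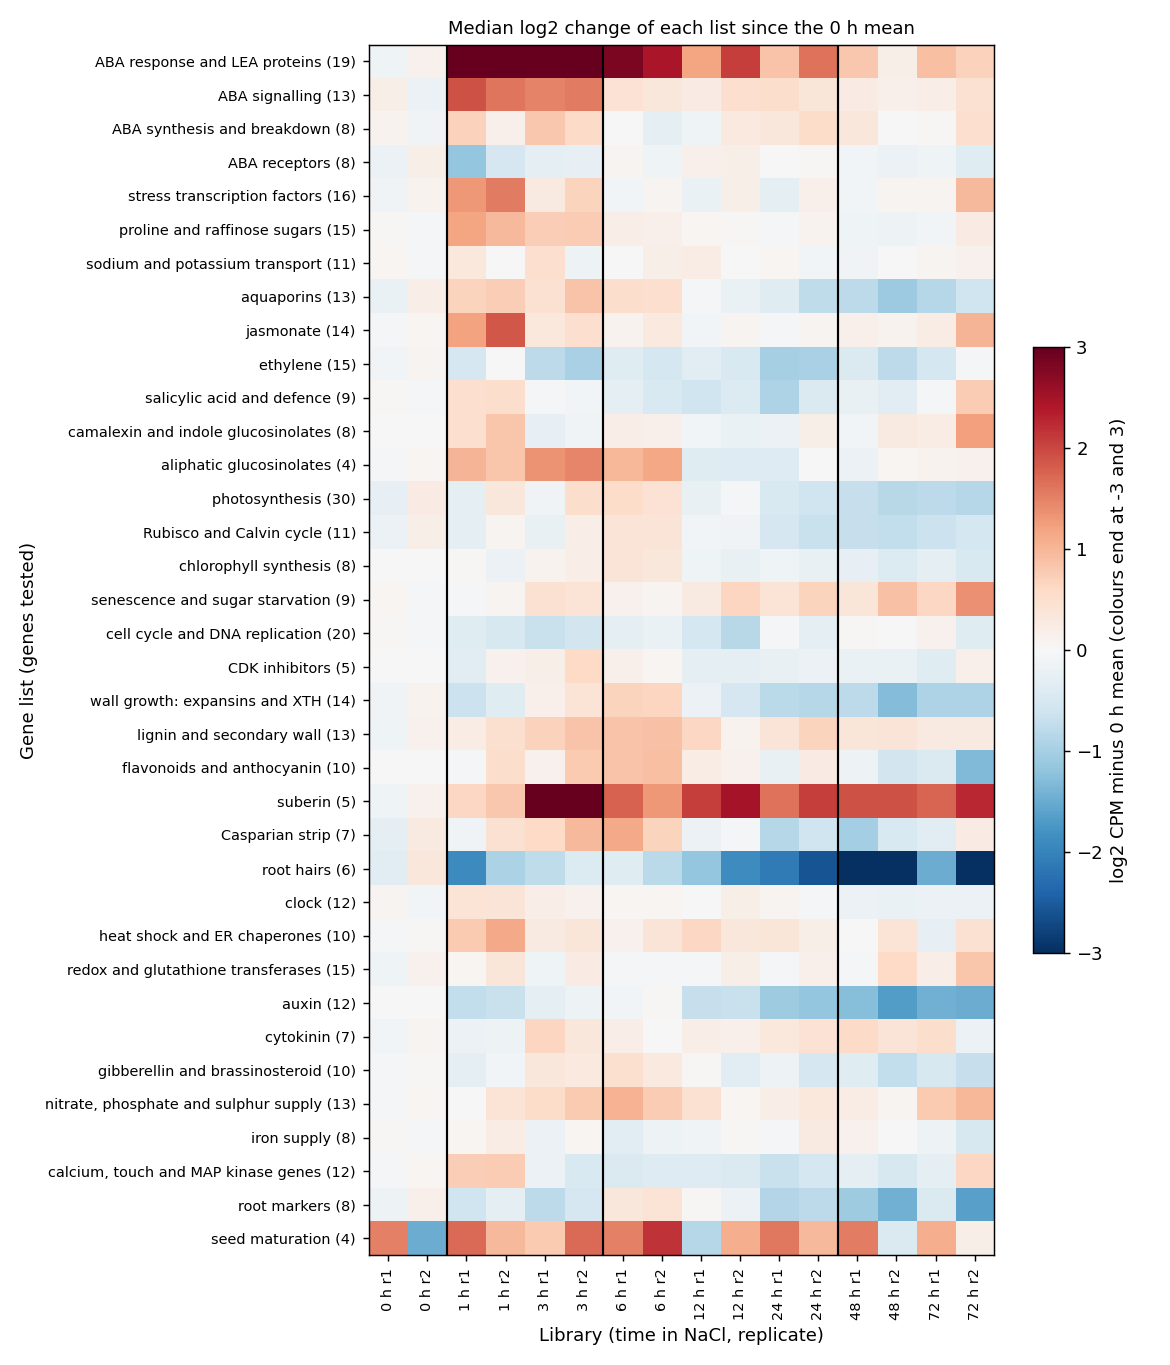
Median log2 CPM of each gene list minus its mean at 0 h (colour, ending at -3 and 3) in each of the 16 libraries of the course (x axis, hours and replicate r1 or r2) for the 36 lists (y axis, genes tested in brackets); black lines set off the early libraries at the left and the late ones at the right. ABA response genes are dark red at 1 and 3 h, photosynthesis and auxin genes are blue at 48 and 72 h, and 72 h replicate 2 is redder than the other late libraries for stress, jasmonate and camalexin genes.

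DNA replication genes were among the few groups that were higher late than early. Of 20 cell cycle genes 9 rose and 1 fell, with a median of 0.30. Beside 0 h, 7 of the 20 were lower early (7.39% of all genes were) and edgeR called none higher, with a median of -0.597. Late, 2 were higher than at 0 h (14.6% of all genes were) and 3 lower (16.7%), with a median of -0.0523. MCM6 (AT5G44635), a subunit of the replicative helicase, had 6.12, 3.95, 3.46 and 2.34 CPM early and 14.4, 10.3, 13.2 and 6.26 late (1.51 ± 0.24, adjusted p = 0.000345). MCM3 (AT5G46280) rose by 1.29 ± 0.17 and MCM2 (AT1G44900) by 1.27 ± 0.15. MCM6 was lowest late in 72 h replicate 2, which still lay above the 4 early libraries. The 9 that rose all belong to DNA synthesis: 6 subunits of the MCM helicase, both genes for the sliding clamp PCNA, and RNR1 (AT2G21790), which supplies nucleotides. None of the cyclin and mitotic kinase genes tested was called higher, and AUR2 (AT2G25880), a kinase of chromosome segregation, fell from 8.68 to 9.25 CPM across the early libraries to 2.05 to 2.84 late (-1.90 ± 0.12, adjusted p = 4.61e-07). Without 72 h replicate 1 the number of cell cycle genes called lower was 2. Of 5 genes for CDK inhibitors, which brake the cycle, 1 fell, KRP4 (AT2G32710; -0.24 ± 0.08), a call that was lost without any 1 of 5 libraries (1 h and 3 h replicate 1, 48 h replicates 1 and 2, 72 h replicate 1).

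Genes for wall loosening went both ways, 5 of 14 rising and 7 falling (median -0.45). TCH4 (AT5G57560), a touch-induced xyloglucan enzyme, had 37, 42.1, 41.2 and 25.7 CPM early and 241, 127, 128 and 376 late (2.56 ± 0.36, adjusted p = 0.000128). XTR7 (AT4G14130), of the same family, rose by 1.70 ± 0.28. The expansin genes EXPA11 (AT1G20190) and EXPA8 (AT2G40610), whose proteins loosen walls as cells grow, fell by 2.26 ± 0.20 and 1.70 ± 0.18 on the log2 scale. EXPA11 had between 11 and 14.4 CPM early and 2.69, 2.92, 3.09 and 1.49 late. The 5 that rose were all xyloglucan enzymes, and the number that rose was 3 without 1 h, 3 h or 48 h replicate 1. The early level of TCH4 and XTR7 was below that at 0 h by 2.95 and 2.94 on the log2 scale.

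Auxin genes fell in 8 of 12, and edgeR called none higher (median -1.02) with all libraries and 1 without 1 h replicate 2 or 72 h replicate 1. SHY2 (AT1G04240), a repressor of auxin response that auxin itself induces, had 23.2, 22.2, 27.1 and 28.4 CPM early and 6.44, 3.65, 4.43 and 2.04 late (-2.63 ± 0.21, adjusted p = 1.97e-06). The related AXR3 (AT1G04250) and IAA14 (AT4G14550) fell by 1.90 ± 0.27 and 1.78 ± 0.10. PIN7 (AT1G23080), an auxin exporter, had 19.9, 24.1, 54.5 and 46.8 CPM early and 11.5, 8.8, 11 and 6.26 late (-1.83 ± 0.17, adjusted p = 6.17e-06). It had already been below its 0 h level early, by 1.12 on the log2 scale. Against 0 h 10 of the 12 were lower late. Genes of gibberellin and brassinosteroid, hormones of elongation growth, fell in 8 of 10 and rose in 1 (median -0.72), or in none without 1 h replicate 2 or 72 h replicate 1. GA2OX6 (AT1G02400), which inactivates gibberellin, had 106, 112, 29.4 and 38.1 CPM early and 7.68, 10.7, 14.6 and 26.7 late (-2.14 ± 0.20, adjusted p = 6.6e-06). GASA4 (AT5G15230), which gibberellin induces, fell by 1.17 ± 0.25, RGL3 (AT5G17490), a repressor of the response, by 0.91 ± 0.26, and GAI (AT1G14920), another, by 0.74 ± 0.19. The calls of RGL3 and GAI were lost without both late libraries of replicate 2 (adjusted p = 0.0984 and 0.0612). Of 7 cytokinin genes 1 rose, the synthesis gene IPT3 (AT3G63110; 0.75 ± 0.13), and 1 fell, CKX5 (AT1G75450; -0.55 ± 0.16), which degrades cytokinin. IPT3 was lower at 72 h than at 3 h (-0.16). The number of cytokinin genes that rose was 2 without replicate 1 of 1 or 3 h or replicate 2 of 48 or 72 h, and the number that fell was 2 without 48 h replicate 1.

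Suberin and the Casparian strip seal the root against uncontrolled flow of water and ions. Of 5 suberin genes 2 rose and 3 fell. Beside 0 h, 3 of the 5 were called higher early (9.04% of all genes were) and all 5 late (14.6%). Their median was 2.64 above 0 h early and 1.89 above it late. CYP86A1 (AT5G58860), which makes the fatty acid part of root suberin, had 1.1, 1.21, 1.21 and 1.7 CPM early and 8.92, 14.3, 10.3 and 15.9 late (3.26 ± 0.25, adjusted p = 1.73e-06). KCS2 (AT1G04220), which lengthens the fatty acids, moved the other way, from 70.9, 57, 287 and 371 CPM to 11.8, 11.7, 10.5 and 11.7 (-3.67 ± 0.17, adjusted p = 9.05e-08). ASFT (AT5G41040), which adds ferulate, had 19.3 and 19.4 CPM after 1 h and 263 and 234 after 3 h, against 14.2 to 27.4 late. The suberin exporter ABCG6 (AT5G13580) had 1.1 and 1.76 CPM at 1 h, 82.3 and 77 at 3 h and 3.46 to 8 late. ASFT and ABCG6 were called lower late (-1.73 ± 0.23 and -1.18 ± 0.30), while against 1 h alone ABCG6 was higher by 1.40 at 48 h and 2.07 at 72 h. The fifth member, FACT (AT5G63560), named after its values were seen, rose by 0.97 ± 0.27. Without 48 h replicate 2, 1 member rose.

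Of 7 Casparian strip genes 6 fell (median -0.79), among them the strip scaffold gene CASP1 (AT2G36100; -0.79 ± 0.23) and MYB36 (AT5G57620; -0.79 ± 0.20), which switches the strip genes on. PER64 (AT5G42180), a peroxidase of the strip, and ESB1 (AT2G28670), which places the strip, fell by 0.67 ± 0.18 and 0.66 ± 0.21 on the log2 scale. The late libraries of CASP1 (5.51, 8.8, 9.53 and 14 CPM) overlap the early ones (9, 15.3, 17.9 and 23.6). For CASP1 replicate 2 was the higher at each of the 4 times. Without both late libraries of replicate 1, 2 of the 7 genes were called. The CASP1 call was lost without 1 h replicate 2, 48 h replicate 1 or 72 h replicate 1 (adjusted p = 0.0557, 0.0571 and 0.052). The ESB1 call was lost without replicate 2 of 1 or 3 h or replicate 1 of 48 or 72 h (adjusted p = 0.0749, 0.0598, 0.0778 and 0.072).

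Of 6 root hair genes 4 fell (median -2.37), all at low levels. RSL4 (AT1G27740), the transcription factor that sets hair length, named after its values were seen, had 1.82, 2.06, 3.82 and 3.93 CPM early and 0.512, 0.0429, 1.05 and 0.348 late (-2.60 ± 0.45, adjusted p = 0.000613). Organ markers were used to check the seedling label. Of 8 root markers tested 1 rose, the auxin exporter PIN2 (AT5G57090; 0.98 ± 0.14), and 5 fell, among them the root glucosidase gene BGLU22 (AT1G66280; -1.0 ± 0.33), CASP1 and ESB1. BGLU22 had 35.4 and 63.6 CPM in the late libraries of replicate 1 and 16.2 and 18 in those of replicate 2, and its call was lost without them (adjusted p = 0.079). It was also lost without 1 h replicate 1, 3 h replicate 1 or 48 h replicate 2. Without 1 h replicate 2 the number of root markers called lower was 3. Shoot markers, the photosynthesis genes above, and root markers thus were both lower late, and the part that organ proportions have in any result was not tested. None of 4 seed maturation genes was called by edgeR with all libraries, and 1 was lower without 48 h replicate 1.

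Jasmonate, a wound and defence hormone, had 7 of 14 genes lower and 1 higher late. The number higher ranged from 0 (without replicate 2 of 1, 3 or 72 h or replicate 1 of 48 h) to 2 without 48 h replicate 2 and 3 without 72 h replicate 1. AOS (AT5G42650), an enzyme of its synthesis, had 45.4, 105, 53.1 and 92.2 CPM early and 9.99, 8.28, 15.8 and 24.9 late (-2.44 ± 0.27, adjusted p = 2.05e-05). MYC2 (AT1G32640), the master transcription factor of the response, had 137, 184, 81.3 and 74.3 CPM early and 34.2, 27.7, 39.7 and 50.3 late (-1.58 ± 0.12, adjusted p = 1.82e-06). LOX3 (AT1G17420) and OPR3 (AT2G06050), which also act in synthesis, fell by 0.91 ± 0.23 and 0.82 ± 0.16, but LOX3 was not lower at 72 h than at 3 h (0.49). The list median of 72 h replicate 2 was 1.01 above the 0 h mean, against 0.117 to 0.213 in the other late libraries. Of 15 ethylene genes 5 rose and 3 fell (median 0.05). ACS11 (AT4G08040), a synthase of the ethylene precursor, had 5.07, 7.53, 1.25 and 2.34 CPM early and 22.1, 9.48, 34.7 and 12 late (2.53 ± 0.39, adjusted p = 0.000242). ACS2 (AT1G01480), another, rose by 1.43 ± 0.36, with 56 CPM in 72 h replicate 2 against 6.61 to 17.5 in the other late libraries, and was lower at 48 h than at 1 h (-0.50). EFE (AT1G05010), which releases ethylene, and the response repressor ERF4 (AT3G15210) fell by 1.06 ± 0.16 and 1.56 ± 0.17. Of 9 salicylic acid and defence genes 3 fell, among them ICS1 (AT1G74710; -0.86 ± 0.11), which makes most pathogen-induced salicylate. Without 48 h replicate 2 the number was 5, and without 72 h replicate 1, 2 genes of the list rose.

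Defence metabolites and detoxification differed between the late replicates. Of 8 camalexin and indole glucosinolate genes 4 rose and 2 fell (median 0.41). Without both late libraries of replicate 2 the counts were 2 and 3 (median 0.04), and without both of replicate 1 they were 5 and 1 (median 0.67). CYP71A12 (AT2G30750), an enzyme of indole defence compounds, had between 2.2 and 3.63 CPM in the early libraries, 2.6 and 6.06 in late replicate 1 and 18.2 and 54.6 in late replicate 2 (2.61 ± 0.76, adjusted p = 0.014). The call ended without the library of 48 h replicate 2 (adjusted p = 0.106) or that of 72 h replicate 2 (adjusted p = 0.103), and without both the change was 0.45 (adjusted p = 0.576). CYP81F2 (AT5G57220), which modifies indole glucosinolates, rose from 6.19 to 26.2 CPM across the early libraries to 25.7, 54.5, 49.8 and 135 late, with 48 h replicate 1 just inside the early range (2.33 ± 0.34, adjusted p = 0.000182). MYB34 (AT5G60890), a regulator of the same compounds, fell from 39.2 to 54.4 CPM to 7.65 to 13.5 (-2.20 ± 0.14, adjusted p = 5.25e-07), and CYP79B3 (AT2G22330), an early enzyme of the pathway, fell by 0.93 ± 0.25. For the aliphatic glucosinolates 3 of 4 genes fell, led by the regulator MYB28 (AT5G61420), which had 15.6, 12, 33.3 and 31.2 CPM early and 5.12, 4.55, 2.55 and 2.09 late (-2.65 ± 0.15, adjusted p = 2.33e-07), and the sulfotransferase gene SOT18 (AT1G74090; -1.05 ± 0.20).

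Of 15 redox and glutathione transferase genes 5 rose and 3 fell, and 3 rose without 48 h replicate 2. Without both late libraries of replicate 2 the counts were 2 and 5, and without both of replicate 1 they were 8 and 2. GSTU24 (AT1G17170), a detoxifying transferase, had 35.1, 51.6, 17.8 and 33.5 CPM early and 95.5, 278, 73.6 and 186 late (2.23 ± 0.37, adjusted p = 0.00041). Every late library lay above every early one, and late replicate 2 was higher than late replicate 1 at both times. GSTU25 (AT1G17180) had 1.15 and 1.88 CPM in late replicate 1 and 30 and 17.1 in late replicate 2, against 0.845 to 3.46 early. Its call (2.77 ± 1.05, adjusted p = 0.0477) was lost without any 1 of 6 of the 8 libraries, the exceptions being replicate 1 of 48 and 72 h, and without both late libraries of replicate 2 the change was -0.27. GSTU4 (AT2G29460) rose by 1.12 ± 0.33, a call lost without replicate 2 of 48 h (adjusted p = 0.0915) or of 72 h (adjusted p = 0.0672), and without both the change was 0.33 (adjusted p = 0.323). APX1 (AT1G07890), a cytosolic peroxidase that removes hydrogen peroxide, fell by 1.0 ± 0.17 on the log2 scale.

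Among 9 senescence and sugar starvation genes 3 rose and 2 fell, or 1 fell without replicate 2 of 1, 3 or 72 h or replicate 1 of 48 h. NAC6 (AT5G39610), a transcription factor that advances leaf senescence, had 26.8, 29.2, 28.4 and 28.1 CPM early and 46.6, 66.5, 66.4 and 103 late (1.30 ± 0.15, adjusted p = 3.7e-05). SAG13 (AT2G29350), a senescence and stress marker, had 0.668 to 1.82 CPM early, 0.896 and 6.57 in late replicate 1 and 40.6 and 110 in late replicate 2 (4.95 ± 1.1, adjusted p = 0.00309). The call was lost without 48 h replicate 2 (2.69, adjusted p = 0.0541) and without both late libraries of replicate 2 (1.12, adjusted p = 0.155). DIN2 (AT3G60140), a glucosidase induced in dark-starved leaves, rose by 1.18 ± 0.28, a call also lost without both (adjusted p = 0.0721). SAG29 (AT5G13170), a sugar transporter of stressed and ageing tissue, had 0.634 and 0.182 CPM at 1 h, 28.4 and 26.8 at 3 h and 0.0858 to 0.341 late (-4.02 ± 0.61, adjusted p = 0.000236). Without both late libraries of replicate 2, 1 member of this list rose.

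Of 10 flavonoid and anthocyanin genes 8 fell (median -1.23), or 5 without both late libraries of replicate 2. TT5 (AT3G55120), the chalcone isomerase gene, had 74.2, 96.7, 68.9 and 104 CPM early and 31.4, 29.1, 29.9 and 24.7 late (-1.58 ± 0.16, adjusted p = 1.24e-05). TT4 (AT5G13930), the first enzyme of the pathway, had 133, 75.2, 80.2 and 21.9 CPM late against 109 to 196 early. Its call (-0.96 ± 0.34, adjusted p = 0.034) was lost without replicate 2 of 1, 3, 48 or 72 h, and without both late libraries of replicate 2 the change was -0.46 (adjusted p = 0.161). UGT78D2 (AT5G17050), which adds glucose to flavonoids, fell by 0.61 ± 0.12. Of 13 lignin and secondary wall genes 1 fell, OMT1 (AT5G54160; -0.42 ± 0.16), which methylates lignin precursors. That call ended without 1 h, 3 h or 48 h replicate 2 or replicate 1 of 48 or 72 h.

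Clock genes, tested in seedlings under continuous light, fell in 8 of 12 by small amounts. FKF1 (AT1G68050), a blue light sensor, fell by 0.79 ± 0.15, the evening gene GI (AT1G22770) by 0.68 ± 0.11, the coactivator LNK1 (AT5G64170) by 0.68 ± 0.15 and RVE1 (AT5G17300), which links the clock to growth, by 0.59 ± 0.13. Of 10 heat shock and chaperone genes 5 fell. HSFA2 (AT2G26150), a heat shock factor, had 24.8, 16.9, 6.19 and 7.85 CPM early and 2.56, 6.01, 2.72 and 5.27 late (-1.55 ± 0.28), and stayed 2.25 above its 0 h level (adjusted p = 0.00249). The chaperone genes HSP90.1 (AT5G52640) and HSP101 (AT1G74310) fell by 1.36 ± 0.25 and 1.24 ± 0.25, and HSFB2A (AT5G62020), a repressor class factor, by 1.22 ± 0.14.

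In mineral nutrition, NAS1 (AT5G04950), which makes the metal chelator nicotianamine, had 0.422, 0.607, 2.65 and 2.58 CPM early and 17.4, 17, 19.5 and 15.5 late (3.91 ± 0.23, adjusted p = 3.34e-07). It was 1 of 3 of 8 iron genes that rose, and the other two did so at low levels. The number that rose was 1 without 3 h or 72 h replicate 1. FIT1 (AT2G28160), the regulator of iron uptake, fell by 1.69 ± 0.32, and the ferritin genes FER4 (AT2G40300) and FER3 (AT3G56090), whose proteins store iron, by 0.36 ± 0.09 and 0.33 ± 0.11. FER4 and FER3 were not lower at 48 h than at 3 h (0.03 and 0.02), and the FER4 call was lost without both late libraries of replicate 2 (adjusted p = 0.0681). The FER3 call was lost without replicate 2 of 1, 3 or 48 h or replicate 1 of 48 or 72 h. Of 13 genes for nitrate, phosphate and sulphur 4 rose and 5 fell. The phosphate transporter genes PHT1;1 (AT5G43350) and PHT1;4 (AT2G38940) fell by 1.33 ± 0.22 and 1.18 ± 0.16, the nitrate reductase gene NIA1 (AT1G77760) fell by 0.73 ± 0.14, and APR2 (AT1G62180), which reduces sulphate, rose by 0.67 ± 0.14. The number that rose was 2 without 1 h replicate 1, 48 h replicate 2 or 72 h replicate 2.

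Across all genes, 9 of the 15 largest falls with non-overlapping libraries belong to the lists described, as do 3 of the 15 largest rises (NAS1, CYP86A1 and PYL6). The table pairs no gene with a name, and 4 genes outside the lists are given by identifier. AT5G53710 had the largest fall, with 21.5, 14.5, 5.95 and 6.68 CPM early and 0, 0, 0.125 and 0.0497 late, which is 1009 reads against 4 (-8.81 ± 0.48, adjusted p = 3.46e-07). AT1G66100 had 18.3 to 28.3 CPM early and 1.11, 0.858, 0.293 and 0.348 late (-5.43 ± 0.20, adjusted p = 1.37e-08), and its 0 h level of 27.8 and 29.6 CPM was as high as the early one. AT1G26390 had 3 reads in the early libraries together and 1806 in the late ones, a ratio of library-scaled counts of 544 with a 95% counting interval from 186 to 2640. Its late libraries held 0.341 and 0.878 CPM in replicate 1 and 28.6 and 55.1 in replicate 2, and the fitted rise was 8.95 ± 1.85 with all libraries and 3.76 without both late libraries of replicate 2. AT2G24945 rose from 4 reads to 1822, and the late libraries held 6.57, 26.5, 28.3 and 18.5 CPM (8.65 ± 1.52, adjusted p = 0.000646). At 12 h it had 0.295 CPM in replicate 1 and 46.4 in replicate 2, and at 24 h it had 0.0404 and 0.357.

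More genes were called between the early times than between the late ones. Between 3 and 1 h 693 genes (4.5%) were higher and 848 (5.5%) lower. Of these 1541, 962 were also called late against early, as were 7109 of all 15407 genes tested. Both comparisons use the 1 and 3 h libraries. Between 72 and 48 h edgeR called none (0.0%), while 1230 genes (7.98%) had an unadjusted p below 0.05 and DESeq2 called 86. Without 72 h replicate 1 edgeR called 305 higher and 89 lower at 72 h. The median absolute difference was 0.16 between the late times, 0.247 between the early times and 0.393 between late and early. Of the genes called late against early, 1020 that rose and 1191 that fell were also called in that direction in each of the 4 single pairs of a late and an early time.

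The other times of the course place the change. For each gene called with at least a 2-fold difference, the level at another time was set on a scale where 0 is the early mean and 1 the late mean of log2 CPM. For the 913 genes higher late the median positions at 0, 6, 12 and 24 h were 0.30, 0.185, 0.52 and 0.853. For the 1430 lower late they were 0.426, 0.176, 0.536 and 0.796. At 6 h the median gene of either direction was thus nearer to the early than to the late level, and at 24 h it was nearer to the late level. The 0 h level divides the genes further. Among those lower late, 38.4% had a 0 h level near the early one (position under 0.25), 31.0% lay between, and 21.4% lay near the late level (0.75 to 1.25). Among those higher late the shares were 45.9%, 32.9% and 15.3%. LHB1B1 is of the first kind among the falls, with 5660 and 8990 CPM at 0 h, and RD29A, with 30.6 and 31.9, of the last.

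**Figure D4:**
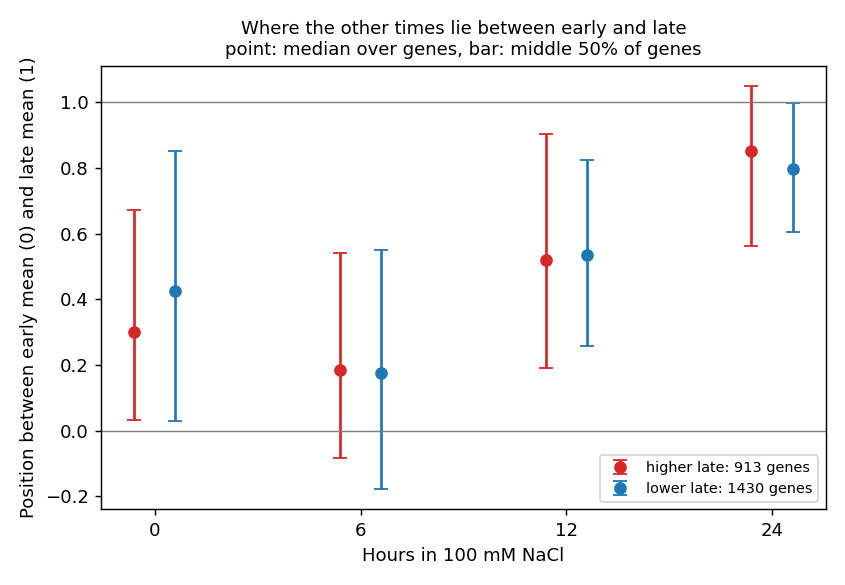
Position of the levels at 0, 6, 12 and 24 h (x axis, hours in NaCl) between the early mean (0) and the late mean (1) on the y axis, for the 913 genes called higher late (red) and the 1430 called lower late (blue) by at least 2-fold; points are medians over genes and bars the middle 50% of genes. Both medians lie under 0.2 at 6 h, near 0.5 at 12 h and at 0.853 and 0.796 at 24 h.

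At 24 h the lists differed in how many members were already called. With 24 h in place of 48 and 72 h, an alternative added after the data were seen, 15 of the 19 ABA response genes were lower than in the early libraries (median -3.07). For photosynthesis the number was 16 of 30 (median -0.65 against -0.93). AT1G26390 and AT2G24945 were not called at 24 h (4.18 and 2.02). Over all genes 2260 were called higher and 2366 lower at 24 h.

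A second experiment of the series gives a later against an earlier time under salt in other libraries. It holds Col-0 and a line labelled wrky25/33 at 0, 2 and 24 h, 3 libraries each. All of them entered the fit, and Col-0 at 24 h was compared with Col-0 at 2 h. Its times differ from those of the course, so values stand side by side. Of 19316 genes tested there, 1239 (6.41%) were higher and 1338 (6.93%) lower at 24 h than at 2 h. With the labelled batch, which equals the replicate number, as a block, the counts were 2798 and 2592. The values that follow are from the fit without the block unless the block is named. Of 3310 genes higher late in the course and tested in both, 2709 (81.8%) had the same sign there, and of 3144 genes lower late 2415 (76.8%) had, against 68.0% over all 13671 genes tested in both. Of the genes higher late in the course 617 were called higher in the second experiment, which is 18.6% of the course calls and 68.5% of the second experiment's, and 14 were called the other way. With the block 1128 were called higher (34.1% and 56.3%) and 53 the other way. Of those lower late 671 were called lower (21.3% and 72.0%) and 29 the other way, and with the block 1126 were called lower (35.8% and 62.2%) and 119 the other way.

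Of 19 ABA response genes 17 were lower in the second (median -3.82), with RD29A at -6.42 ± 1.06. PYL6 was higher by 3.50 and TIP2;3 lower by 7.04 on the log2 scale. RD20 stood at 0.59 (adjusted p = 0.619) against -4.57 in the course, and AT2G24945 at -0.59 (adjusted p = 0.163) against 8.65. NRT1.5, which fell in the course (-2.47), stood at 1.36 ± 0.48 (adjusted p = 0.0728). With the block NRT1.5 was called higher (1.24 ± 0.34, adjusted p = 0.015). Of 29 photosynthesis genes 2 were higher and edgeR called none lower at 24 h (median 0.29), against a median of -0.65 for 24 h in the course. With the block 14 of the 29 were higher and 1 was lower (median 0.29). LHB1B1 stood at 0.04. Of 12 aquaporins 1 was higher and 1 lower (median -0.27), and of 18 cell cycle genes 2 were lower and none higher by edgeR (median -0.22). With the block 2 aquaporins were higher and 2 lower, and 1 cell cycle gene was higher and 4 were lower. A difference between the experiments was not tested.

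**Figure D5:**
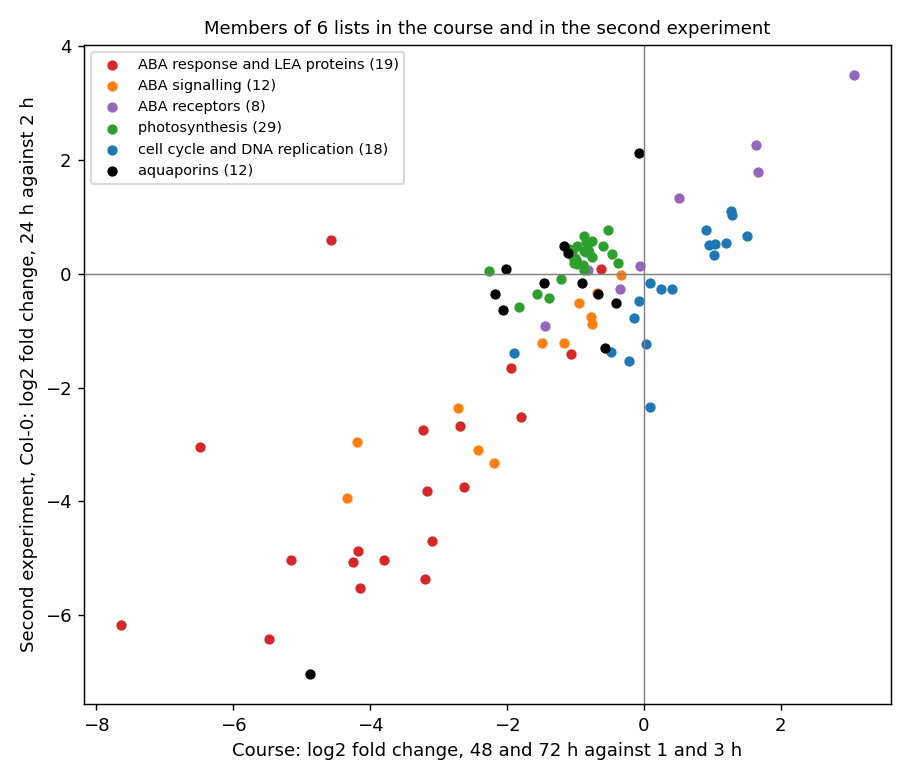
Log2 fold change of 48 and 72 h against 1 and 3 h in the course (x axis) and of 24 h against 2 h in Col-0 of the second experiment (y axis) for the members of 6 lists tested in both (numbers in the legend); each point is a gene and grey lines mark no change. Most ABA response genes (red) lie low on both axes, with RD20 and RAB18 above the horizontal line at 0.59 and 0.08. Photosynthesis genes (green) lie left of 0 on the x axis and around 0.29 on the y axis.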

How the data were processed

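The authors deposited the time course as a table of expected counts for 24060 genes. Of its values 1.42% (973 genes) had decimals and were rounded to whole numbers. For the second experiment the authors deposited counts per library (34218 genes, 20100 shared with the course). The column counted on either strand was used, since 49.8% to 50.4% of reads lay on the opposite strand, so overlapping and antisense genes cannot be told apart there. STAR and TAIR10 are named per the submitters' processing notes, and the sources used here do not give versions, annotation or counting tool. Columns were matched to samples by title, and no library was identical to another.

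Analysis used edgeR 4.0.16 in R 4.3.3. All 16 libraries of the course were fitted with 1 coefficient per time after filterByExpr and TMM scaling (residual degrees of freedom 8, biological coefficient of variation 0.178). The mean of 48 and 72 h was tested two-sided against the mean of 1 and 3 h, with Benjamini-Hochberg adjustment over all genes and calls at 0.05. All groups of the second experiment, Col-0 and wrky25/33 at 0, 2 and 24 h, were fitted alike. Standard errors were derived from the fold change and its F statistic. Log2 CPM used a prior count of 2. Comparisons with 0 h share libraries with the main comparison. Having 2 libraries per time limits the precision, and intervals on read counts cover counting error only. The late against early fit was tested on simulated counts.

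The samples, lists and named genes were chosen with earlier results of these data known. The lists, written from general knowledge, supply the gene names. Up to 4 called members of each list with a mean of at least 5 CPM are named by size of change, and the 15 largest non-overlapping rises and falls of all genes were ranked, of which at most 2 each way without a listed name are given; uncalled members may be named, and exceptions are marked. No Arabidopsis sequence or family table was used, so promoters and gene families are not described. In the second experiment the sheet gives a batch equal to the replicate number, and same-numbered libraries deviated together in 15 of 15 group pairs (r from 0.175 to 0.754), so blocked counts stand beside the result. Alternatives were RLE scaling, DESeq2 1.42.0, other filters (none, or 5 CPM in 2 libraries), fewer times in the fit, single times, a replicate block and leaving out libraries.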

Additional observations from a re-analysis of the deposited data

Results flagged for a closer look

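In 17 of 350 groups of 4 libraries (4.86%) 1 library lay far from the other 3 by Dixon's test. The groups share libraries and each mixes 2 times, so the share that chance would give is not known. The library of 72 h replicate 2 was flagged most often. Values are log2 CPM. Among the early libraries, RD29A was highest at 3 h replicate 2 (11.5, others 10.8 to 10.9) and HSFB2A at 3 h replicate 1 (4.85, others 4.52 to 4.56). Among the late libraries, 72 h replicate 2 was highest for NCED3 (0.987, others -0.287 to -0.24), HAI1 (2.54, others 1.1 to 1.14), ABCG6 (3.02, others 1.83 to 2.01) and FER3 (6.22, others 5.9 to 5.94). The library of 72 h replicate 1 was lowest for MAPKKK18 (-2.88, others -1.2 to -0.886) and KCS2 (3.4, others 3.56 to 3.57). At 48 h replicate 2 the lowest values were those of GI (4.65, others 5.0 to 5.02), RBCS2B (10.7, others 10.9) and RBCS3B (11.9, others 12.0 to 12.1), and 48 h replicate 1 was highest for LHCB4.2 (9.34, others 9.12 to 9.14).

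As list medians relative to the 0 h mean, 72 h replicate 2 was highest for stress transcription factors (0.981, others -0.0879 to 0.0879), proline and raffinose genes (0.25, others -0.145 to -0.0835), jasmonate (1.01, others 0.117 to 0.213) and calcium, touch and MAP kinase genes (0.625, others -0.476 to -0.289). The clock list was lowest at 48 h replicate 2 (-0.192, others -0.17 to -0.168).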

How the results depend on the processing

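Late against early, the counts of genes higher and lower were 3411 and 3697 with RLE scaling, 3442 and 3754 with DESeq2, 3455 and 3553 without a filter, 2890 and 2973 with the stricter filter, and 2565 and 2823 with only the 4 times fitted. Leaving out single libraries gave 2807 to 3541 higher and 2988 to 3477 lower. With 2 pooled groups 2323 were higher. The counts were 2136 higher for 48 h against 1 h, 1910 and 2242 for 72 h against 1 h, and 2260 and 2366 with 24 h as the late time. The alternatives with 24 h, and with both late libraries of 1 replicate number left out, were chosen after seeing the data.

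Between 72 and 48 h, DESeq2 called 70 higher and 16 lower, no filter 2 higher, and leaving out 1 library 0 to 305 higher and 0 to 89 lower. Between 3 and 1 h the counts were 147 and 247 with only those times fitted, and 349 to 558 and 383 to 706 without single libraries. Early against 0 h they ranged from 672 to 1369 and 483 to 1045, and late against 0 h from 720 to 2373 and 1093 to 2595, the lowest without a 0 h library. In the second experiment single libraries left out gave 647 to 1789 and 734 to 1998.

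In the course, same-numbered libraries deviated together between the early times (r = 0.606) and between the late times (r = 0.562), but little between an early and a late time (r from 0.00456 to 0.129). Over all times 13 of 28 group pairs were over 0.1 (r from -0.178 to 0.606) and no label ties the numbers, so they were not taken to pair early with late libraries. The fit took same-numbered libraries within the early times, and within the late times, as independent. Standard errors and p-values late against early may therefore be too small. The replicate block gave 3737 higher and 3789 lower late against early, 808 and 984 between 3 and 1 h, 4 and 2 between 72 and 48 h, 1586 and 1354 early against 0 h, and 2477 and 2759 late against 0 h. In the second experiment, where numbers are batches, it gave 2798 and 2592.

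Of 3056 values of the 139 named genes under alternatives, 2830 kept direction and call, 206 lost the call and 20 reversed. Against 1 h alone the reversed values were ACS2 -0.5, SZF1 -0.54, ABCG6 1.4 and ASFT 0.11 at 48 h, and ESB1 0.06, KRP4 0.05, NHX2 0.04, PER64 0.16, ABCG6 2.07 and ASFT 0.1 at 72 h. Against 3 h alone they were FER4 0.03 and FER3 0.02 at 48 h, and LOX3 0.49, FER3 0.18 and IPT3 -0.16 at 72 h. With 24 h as the late time they were ACS2 -0.97, SZF1 -0.19, FER4 0.14 and TT4 0.14. GSTU25 was -0.27 without both late libraries of replicate 2. Of 1584 counts of list members under alternatives, 1346 stayed within 1.5 times. The causes were not tested.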
